A study of Mus musculus with 2 samples.

Results

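A splice junction is a gap in the alignment of an RNA read, and it marks where an intron was removed between the exons on either side. The junctions described here came from mouse ovary and were chosen by their read support and by a flag: in the name of each, the flag A was 0, both read numbers R1 and R2 were above 0, and the read count (R1 plus R2) was at least 10. They numbered 11236 of the 438382 junctions in the table, or 2.56%. They were 4.02% of the 279674 junctions whose A flag was 0. The 158708 junctions whose A flag was 1 are called flagged here, and 105012 of them (66.2%) passed the same read rule. No source used here states what the flag A, or a second flag named C, stands for, and none ties R1 or R2 to a replicate.

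The series measured RNA in whole ovaries of female C57BL/6J mice, littermates 8 weeks of age, in 2 libraries of 1 group, with no treatment and no control group. The RNA was longer than 200 nucleotides, depleted of ribosomal RNA and selected for poly(A) tails, and it was read with strand kept, 76 bases from each end of a fragment. The labels call the libraries biological replicates but cite 1 donor record for both, so the spread between them may be technical. Junctions and contigs (stretches covered by reads) were deposited once for the series, on the mm9 build. Positions here are on mm9 and counted from 1, from the first to the last base of the gap.

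In splicing, the 5′ end of an intron, the donor, is cut and joined to the 3′ end, the acceptor, and most donors and acceptors are recognised by short sequences at the intron's edge. A gene can use a second donor or acceptor close to the usual one, or pass over an exon, and a coding exon keeps its reading frame when the change in length is a multiple of 3. A pair of acceptors 3 bases apart, a tandem acceptor, is a known form of such variation, while genes that occur in near-identical copies can place a read across the wrong pair of exons. Mitochondrial genes of the mouse have no introns.

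Read support was low for most of these junctions and very high for a few. Their median was 20 reads, with quartiles of 13 and 40 and a highest value of 37838, against a median of 71 in flagged junctions of the same read rule. Together they held 773921 reads, 2.80% of the 27636523 junction reads in the table. At the limit, 1017 unflagged junctions with both numbers above 0 had 10 reads and were included, and 1130 had 9 reads and were not. A further 313 unflagged junctions had at least 10 reads but a read number of 0. Across the whole table, 67.3% of unflagged junctions had 1 read.

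Just over 1 in 2 of the junctions touched a flagged one. Of the 11236, 5898 (52.5%) shared a start or an end position with a flagged junction on the same strand. They fell into 2372 that shared the start only (21.1%), 2165 that shared the end only (19.3%) and 1361 that shared both ends (12.1%), each end with a different flagged junction. The other 5338 (47.5%) shared neither end and held 51.3% of the reads. Among unflagged junctions that failed the read rule 22.1% shared an end with a flagged junction, and among flagged junctions that passed it 13.8% shared an end with another flagged one.

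The flag C split the classes sharply. It was 0 in 3359 of these junctions (29.9%), in 0.256% of the flagged ones of the same read rule and in 68.8% of the unflagged ones that failed the rule. Of the 7877 with C equal to 1, 73.4% shared an end with a flagged junction. Of the 3359 with C equal to 0, 117 (3.48%) shared an end and 0 shared both.

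**Figure D1:**
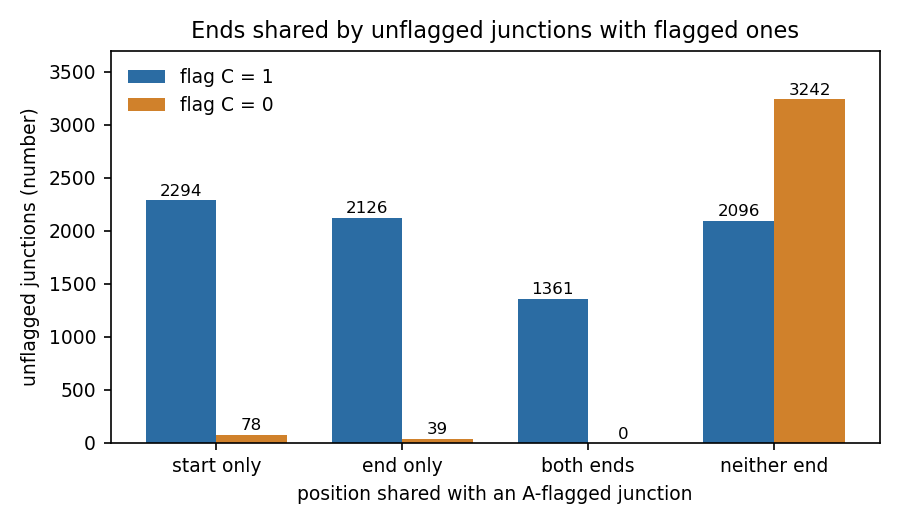
Number of supported unflagged junctions (vertical axis) by which of their end positions a flagged junction also had, with C equal to 1 in blue and C equal to 0 in orange. The 2294, 2126 and 1361 junctions of the blue bars that share an end stand against 78, 39 and 0 in orange, while 3242 of the orange group share neither end.

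Junctions that kept a flagged donor and moved the acceptor were described first. With C equal to 1 there were 2355 of them, and the acceptor lay within 100 bases of that of the most-read flagged partner in 1354. A distance of 3 bases was the most frequent of these. In 262 junctions the acceptor was 3 bases downstream of the flagged one (19.4% of those within 100 bases), and in 100 it was 3 bases upstream (7.39%). The next most frequent were 4 bases downstream, with 122 junctions, and 5 bases downstream, with 70, while 6 bases downstream had 25.

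A multiple of 3 was found in 677 of the 1354 distances (50%), and in 31.8% of the 992 left without the distance of 3. Among the 1001 acceptors farther away it was 35.9%. The 992 still held the 122 junctions at 4 bases downstream and the 70 at 5, neither a multiple of 3. Whether the remaining distances held a surplus of such lengths was not tested. Flagged junctions gave a similar measure, taking each less-read flagged junction that shared a donor with a more-read one. The sets were not built alike, here or for the donors below. The unflagged set also held junctions with more reads than their partner. The flagged set held either value of C and also junctions that shared both ends. Of their 779 acceptors within 100 bases, 64.6% were at a multiple of 3, 22.6% were 3 bases downstream and 15.5% were 3 bases upstream. Distances of 4 bases downstream made up 2.82% of the flagged set and 9.01% of the unflagged one.

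The use of these sites differed with the distance. Use is the junction's share of the reads at its shared end, over its own and all flagged reads there. The median was 15% for acceptors 3 bases downstream and 24.7% for those 3 bases upstream. It was 3.75% for acceptors 4 bases downstream and 3.34% for those 5 bases downstream. It was 3.41% for those 6 bases downstream, so that the frame-keeping shift of 6 bases had a median as low as those of 4 and 5. Upstream shifts of 4 and 5 bases were few, with 9 and 5 junctions, and had medians of 37.5% and 33.3%. The frame-keeping shift of 6 bases upstream had 2 junctions, with a median of 10.9%. Longer downstream multiples of 3 varied, with 43.8% at 18 bases and 29.3% at 21 (7 and 13 junctions). At 15 and 24 bases they were 2.69% and 2.58% (4 and 9 junctions). Whether use depends on the frame was not tested.

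The most-read junction with a shared end was of this kind. SJ97656 at chr10:79353726-79354203 on the plus strand had 34130 reads, 18233 in R1 and 15897 in R2. Its flagged partner SJ97655 ended 3 bases earlier and had 23040 reads, 11407 in R1 and 11633 in R2. The unflagged acceptor thus took 59.7% of the reads at the donor (95% exact binomial interval 59.3% to 60.1%, counting error only). In SJ160176 at chr19:6058002-6058245, also 3 bases downstream, the unflagged acceptor took 63.4% of the reads, 2997 against 1727. In SJ98981 at chr10:81028112-81028219 the same shift took 6.18%, with 1359 reads against 20631. The same 3-base step was thus the major site at some donors and a minor one at others.

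Larger shifts also reached high use. SJ161481 at chr19:10972384-10973472 had 4833 reads against 390 for the flagged acceptor 57 bases upstream, a use of 92.5%. On the minus strand, SJ71708 at chr7:133640143-133640767 used an acceptor 18 bases downstream of the flagged one, with 1761 reads against 538. In both cases the distance is a multiple of 3 and the unflagged site was the more-read one. SJ45646 at chr5:91360460-91361937 took an acceptor 13878 bases upstream of the flagged one, with 1435 reads against 136, a use of 91.3%.

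Junctions that kept a flagged acceptor and moved the donor showed less of this pattern. With C equal to 1 there were 2065, and 650 lay within 100 bases of the flagged donor. The most frequent short shifts were 4 bases downstream, with 38 junctions, and 4 bases upstream, with 29. A multiple of 3 made up 35.4% of the 650. Among the 413 less-read flagged donors within 100 bases, 11 were 4 bases downstream and 6 were 4 bases upstream, and 44.6% were a multiple of 3. The donor example with the most reads was SJ61347 at chr7:3290632-3293203, whose donor was 1305 bases downstream of that of its most-read flagged partner. It had 2711 reads against 666 at the same acceptor, a use of 80.3%. SJ143121 at chr16:33721089-33725510 began 10303 bases downstream of the flagged donor and had 1734 reads against 118 (93.6%).

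**Figure D2:**
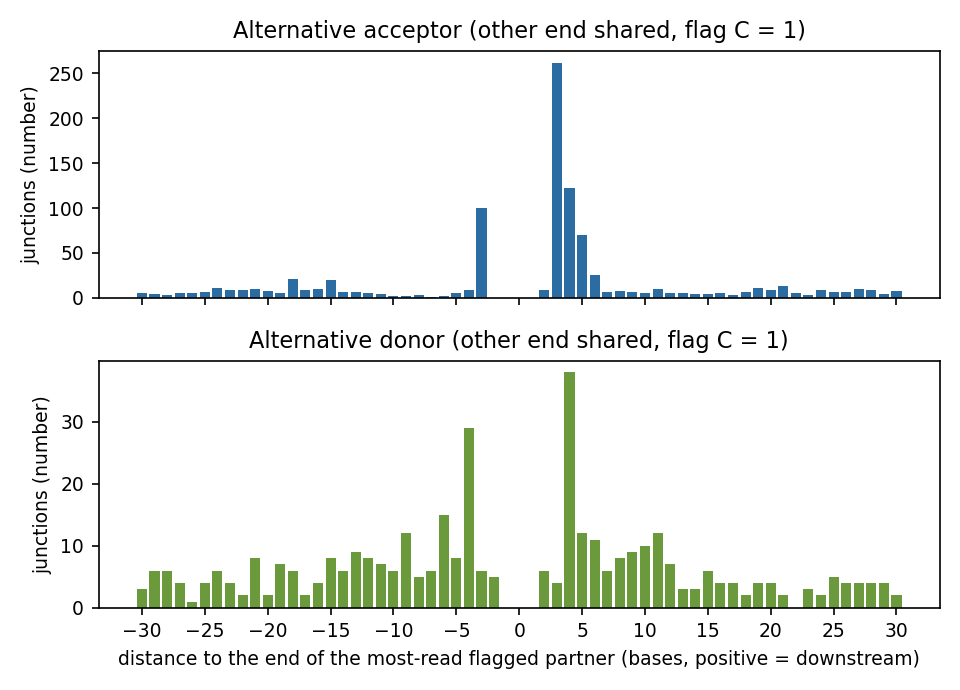
Number of unflagged junctions with C equal to 1 (vertical axis) by the distance in bases from their alternative acceptor (upper panel) or donor (lower panel) to that of the most-read flagged partner, positive being downstream along the strand. The acceptor panel peaks at 3 bases downstream with 262 junctions, and the donor panel has its highest bars at 4 bases downstream and 4 upstream, with 38 and 29.

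Most of the shared ends were used mainly by the flagged junction. Over the 7259 pairs of a junction and a shared end, the median use was 12.0%, with quartiles of 3.49% and 41.1%. The unflagged junction took over 50% of the reads in 1125 pairs (15.5%). The median was 9.09% where only the start was shared, 8.55% where only the end was shared and 21.1% where both were. The last class had an upper quartile of exactly 50%. The rule set at least 10 reads for the unflagged junction but no limit for its flagged partners. Low use could thus be seen only at ends with many flagged reads, and these medians depend on the read limit. By its definition, use is highest at ends where the flagged junctions have almost no reads. SJ5548 at chr1:133859630-133873294 had 1116 reads against 2 at its acceptor (99.8%), and SJ1546 at chr1:52204222-52204744 had 365 against 1 at its donor (99.7%). Use leaves out other unflagged junctions. With all junctions at either end counted, the share of SJ5548 was 82.8% in R1 and 86.1% in R2. SJ111112 at chr11:96824756-96838934 also had 365 reads against 1 at its start (99.7%), and 54 at its end (87.1%).

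**Figure D3:**
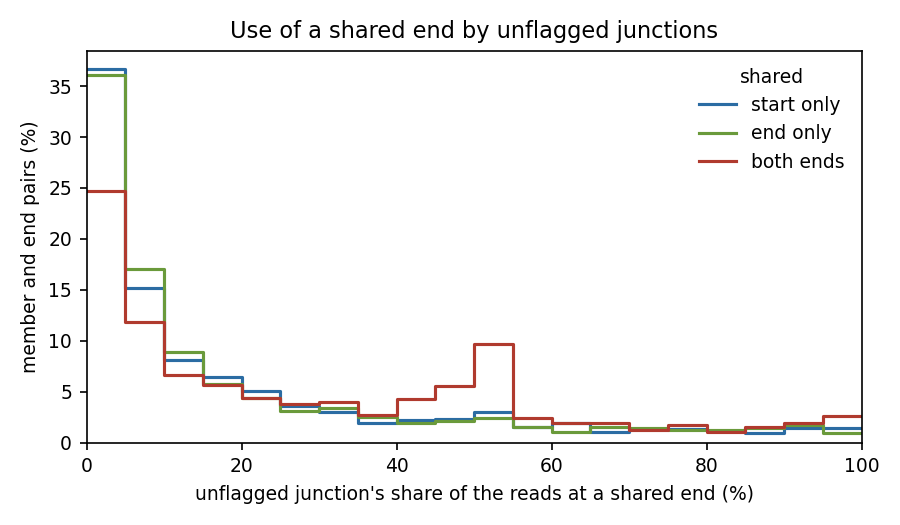
Percent of junction and end pairs (vertical axis) by the unflagged junction's share of reads at a flagged end, in steps of 5 percentage points, for junctions that share the start only, the end only or both ends. All 3 lines fall from a peak below 5%, and the line for both ends has a second peak at 50% to 55% with 264 pairs (9.70%).

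Junctions that shared both ends were sorted by what they passed over. In 715 of the 1361 (52.5%) the flagged junctions at the 2 ends left 1 stretch of at most 500 bases between them, which has the form of a single skipped exon. The skipped stretch had a median length of 112 bases (15 to 482). The skipping junction took a median of 9.04% of the reads, taken over its own and the mean of the 2 flagged junctions beside the stretch. A further 31 passed over 1 longer stretch, 543 (39.9%) over several, and 72 had flagged partners that could not be placed in a row.

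The skipped lengths varied with how often they were skipped. A length that is a multiple of 3 was found in 294 of 715 (41.1%), against 39.7% of the 120828 stretches of at most 500 bases that run from a flagged end to the next flagged start. The share was 36.5% of the 370 stretches skipped in up to 10% of reads and 40.2% of the 256 skipped in 10% to 50%. It was 62.9% (56 of 89) where the skipping junction took more than 50%. Lengths and read shares come from the same table, so these figures are a description, with no test.

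In the most-read example the skipping junction held most of the reads. SJ69154 at chr7:106497975-106501562 on the minus strand had 20109 reads, 10250 in R1 and 9859 in R2. It passed over 44 bases at chr7:106500334-106500377, whose flanking flagged junctions had 59 and 149 reads, so that skipping took 99.5% against that pair. Another flagged junction at its start, SJ69151, had 133 reads. With all junctions at either end counted, the share of SJ69154 was 95.6% in R1 and 96.1% in R2. SJ144411 at chr16:85030611-85043820 passed over 57 bases with 764 reads, against 653 and 557 for the flagged pair, a share of 55.8%. SJ27997 at chr3:105783196-105787970 passed over 117 bases with 589 reads, against 187 and 965, a share of 50.6%. Both of the latter lengths are multiples of 3, and 44 is not.

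A distinct subset joined flagged junctions of the same span. In 142 junctions (10.4% of those sharing both ends) the flagged junction at the start and the flagged junction at the end had exactly the same length, at positions a median of 79569 bases apart (4294 to 851448). These 142 were all among the 543 that passed over several stretches, and they held 31% of the reads of the class that shared both ends. The most-read of them, SJ139032 and SJ103705, had 14798 and 10884 reads, and the next, SJ103702, had 1322. Among 2618 flagged junctions that shared both ends with other flagged ones, 4 (0.153%) had this form.

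Their read numbers often lay near the mean of the flagged pair. The reads of the unflagged junction over that mean had a median of 0.940, with quartiles of 0.647 and 1 (0.039 to 1.96). In some pairs the flagged counts differed widely, as for SJ31362 with 453 reads against 11 and 553. The ratio lay between 0.5 and 2 in 119 of 142 (83.8%), with none above 2. In 35 (24.6%) both R1 and R2 were identical in all 3 junctions. SJ128316, SJ128317 and SJ128362 on chromosome 14 joined the same flagged junctions in pairs. Each had 18 reads, 16 in R1 and 2 in R2. Neither the 142 nor the 35 are thus all separate places. Use of the shared ends had a median of 50%, against 16.9% in the other junctions that shared both ends. Whether the same reads were counted at each of the 3 positions was not tested, since no source used here says how reads that fit several places were counted. No annotation on mm9 was used, so the genes at the paired positions were not named.

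SJ139032 at chr15:98763272-98781899 on the minus strand had the most reads of this form. It had 14798 reads, 7239 in R1 and 7559 in R2. The flagged junctions at its ends both span 132 bases and had 15965 (8157 and 7808) and 13370 (6004 and 7366) reads. SJ103705 at chr11:32184129-32197079 had 10884 reads, 3277 in R1 and 7607 in R2, and its flagged pair, both of 134 bases, had 11028 and 10897. The pair carried the same low R1 as the unflagged junction, 3291 and 3280.

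Close by, SJ103702 at chr11:32183802-32196740 had 1322 reads against 1322 and 1324. Its flagged pair lay 12817 bases apart, as did that of SJ103705. SJ59727 at chr6:124466877-124524518 had 555 reads, as did both flagged junctions, with 273 in R1 and 282 in R2 in each. SJ103702 and SJ59727 were chosen from the 142 after their values were seen. The longest junction of the set, SJ31354 at chr4:41774555-42626096, spans 851542 bases and had 11 reads, 9 in R1 and 2 in R2, exactly as both of its flagged partners.

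**Figure D4:**
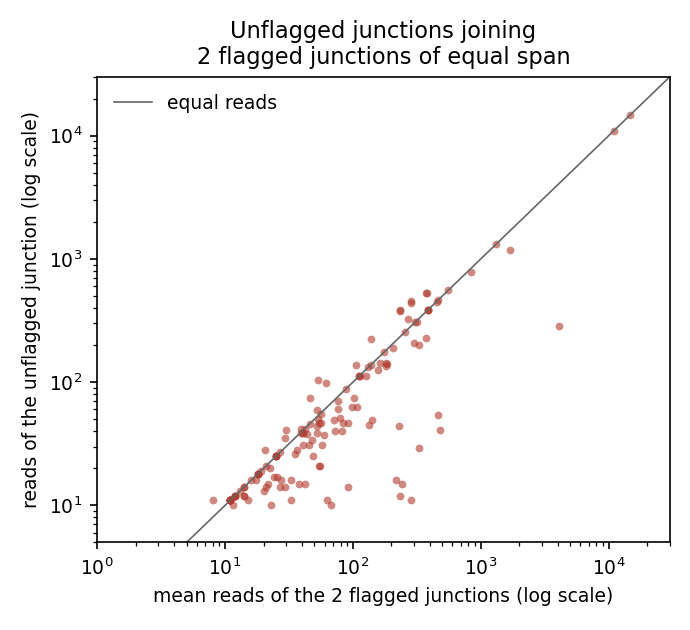
Reads of each of the 142 unflagged junctions (vertical axis, log scale) against the mean reads of the 2 flagged junctions of equal span that it joins (horizontal axis, log scale), with a line of equal reads. Most points lie on or near the line, with a median ratio of 0.940.

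Identical read numbers were not limited to equal spans. Among the 712 junctions that shared both ends and had at least 20 reads, 89 (12.5%) had the same R1 and the same R2 as a flagged junction at one of their ends, and 42 of these were of the equal-span form. The figure was 2.03% of 1183 junctions that shared the start only and 1.14% of 1054 that shared the end only. Among 11686 flagged junctions with at least 20 reads that shared an end with another flagged one it was 0.197%. Beyond the minimum of 20 reads, read numbers were not matched between these groups. Junctions that shared both ends could also match at either end.

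Long junctions with many reads clustered at 1 place on chromosome 19. SJ163359 at chr19:44310467-44375701 had 9218 reads and took 99.3% of the reads at its start and 48.2% at its end. SJ163387 at chr19:44375935-44419189 had 3752 reads, 18.8% of those at its start and 99.8% at its end. SJ163376 at chr19:44372661-44413399 had 2383 reads, 42.9% at its start and 99.9% at its end. In each, 1 end belonged to a flagged junction with many reads (9906, 16174 and 3170) and the other to one with few (65, 6 and 3).

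Pairs of unflagged junctions also placed a stretch inside a flagged junction. In 223 cases 1 of them shared the flagged junction's start, the other its end, and the bases between them (at most 1000 were allowed) formed a stretch of 3 to 712 bases (median 103), as an included exon would. They involved 424 junctions. All 223 stretches lay within a single contig of the same strand, and 96 (43.0%) had a length that is a multiple of 3. The inclusion share, the mean reads of the unflagged pair over that mean plus the flagged reads, had a median of 13.5%, and it exceeded 50% in 39. The mean can rest on 1 strong junction. At chr10:127928346-127928820 the pair had 32 and 1667 reads against 32 flagged ones, a share of 96.4%. Some stretches overlap inside the same flagged junction, so the 39 are not all separate places.

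The examples with the most reads were chosen after their values were seen. At chr10:127928776-127928820 a stretch of 45 bases was joined by junctions of 901 and 1667 reads, against 32 for the flagged junction around it, an inclusion of 97.6%. At chr15:63854125-63854175 a stretch of 51 bases had 273 and 651 reads against 16 (96.7%). At chr5:33612091-33612283 a stretch of 193 bases had 591 and 3264 reads against 1275 (60.2%), and the junction of 3264 reads was SJ43381, the most-read of those that shared the end position only. At chr19:5757035-5757175 a stretch of 141 bases had 664 and 976 reads against 1009 (44.8%). In the first and second of these both unflagged junctions had more reads than the flagged one. In the others 1 or both had fewer.

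Junctions that shared neither end differed by the flag C. Of the 3242 with C equal to 0, 880 (27.1%) lay inside a flagged junction, 365 (11.3%) had an end within 10 bases of a flagged end, and 119 had both ends within 10 bases of the same flagged junction. Of the 2096 with C equal to 1, 89 (4.25%) lay inside a flagged junction and 32 (1.53%) had an end within 10 bases of one. Both ends were more than 10000 bases from any flagged end in 633 (19.5%) of the first group and in 845 (40.3%) of the second.

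The most-read of all was in the first group. SJ99750 at chr10:90586451-90586659 on the minus strand, with C equal to 0, had 37838 reads, 14746 in R1 and 23092 in R2. No flagged junction overlapped it, and the nearest flagged end was 148 bases away, that of SJ99740 with 12683 reads. SJ87734 at chr9:57873050-57873332 had 13142 reads and lay 81 bases from SJ87737, a flagged junction with 8046. SJ89161 at chr9:72510420-72517757 had 4557 reads and lay 166 bases from a flagged junction with 1066, and SJ87989 at chr9:59519531-59519725 had 4141 reads and lay 149 bases from one with 841. In these 4 the flagged end was 81 to 166 bases away, and the unflagged junction had more reads than its flagged neighbour. SJ35844 at chr4:121870932-122132563 was different: its span was 261632 bases, it had 9613 reads, and the nearest flagged end was 404897 bases away.

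In some cases 1 of the positions was 1 base from a flagged one and the other was far from it. SJ52771 at chr6:4455909-4458927, with C equal to 0, had 3076 reads, and its start was 1 base from that of the flagged SJ52772, which had 467 reads and ended at 4458334. SJ2651 at chr1:74342013-74350695 had 2078 reads, and its start was 1 base from that of the flagged SJ2654, which had 27 and ended at 74350348. The latter was named after its values were seen.

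Many of these junctions were crowded into few places. With C equal to 0, 1023 of 3242 (31.6%) lay in 55 loci of at least 5 such junctions, linked on the same strand by a common end or by at most 500 bases from the end of one to the start of the next. With C equal to 1, 408 of 2096 (19.5%) lay in 48 loci. The densest was chr6:29697680-29699191 on the plus strand, 1512 bases in 1 contig, with 344 junctions made from 189 starts and 118 ends. They had 11518 reads in all (10 to 579 each, median 23) and made up 3.06% of all the junctions described. R1 took 70.8% of their reads, against 55.2% over the whole table, and was above R2 in 280 of the 344. In all, 3438 unflagged junctions of any read number lay inside the locus.

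The other dense loci were smaller. On chromosome 13, chr13:74665975-74668425 had 50 junctions with 1352 reads, of which R1 took 73.6%. On chromosome 2, chr2:164333004-164333399 had 44 junctions with 1174 reads, of which R1 took 51.3%. With C equal to 1, the densest was chrX:47918145-47973851 on the minus strand, with 55 junctions and 2756 reads. Next was chr1:137008890-137025230, where 23 junctions had 23 different starts and 23 different ends, with 1482 reads and 0 flagged junctions overlapping. Read share and the number of start and end combinations thus differed widely between loci.

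Spans reached further in both directions than among flagged junctions. The median was 1158 bases (31 to 851542), close to the 1129 of flagged junctions. It was 1775 with C equal to 1 and 410 with C equal to 0. Spans of at most 50 bases were found in 236 junctions and in 0 flagged ones, whose shortest span was 51 bases, and 219 of the 236 had C equal to 0. The 5 shortest named here, all of 31 bases with C equal to 0, had 13 to 121 reads, the highest being SJ37382 at chr4:131912362-131912392. Between 30 and 100 bases, the span was a multiple of 3 in 42.2% of 741 junctions with C equal to 0, 34.4% of 375 with C equal to 1 and 31.8% of 7624 flagged ones. Dense loci were kept in these shares, among them that of 344 junctions with C equal to 0, whose spans start at 32 bases.

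At the other end, spans above 100000 bases were found in 767 junctions (6.83%) and in 369 flagged ones (0.351%). With C equal to 0 there were 369 of these (10.99% of that group), set apart by a second peak in the plot of spans, and with C equal to 1 there were 398 (5.05%). Of the 767, 440 shared neither end, 150 shared both, 122 the start and 55 the end. Chromosomes 17, 12 and 3 had the most of them, with 77, 72 and 72. The equal-span form made up 50 of the 767. The 5 longest had 10 to 27 reads, and 4 of them shared an end. SJ31354, SJ31350 and SJ31366, all on chromosome 4, joined flagged junctions of equal span, SJ45851 at chr5:95080783-95769202 shared its acceptor with a flagged junction of 3 reads, and SJ117250 at chr12:23758428-24485385 shared neither end.

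**Figure D5:**
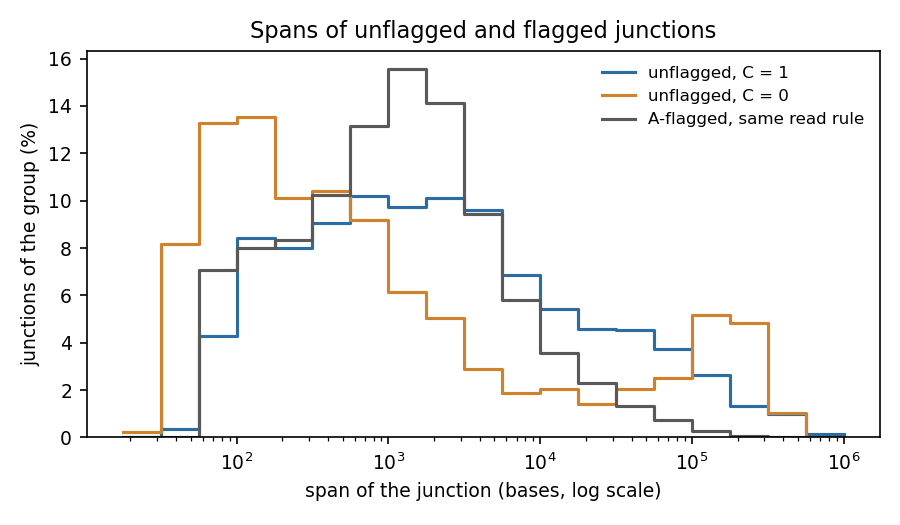
Percent of junctions in each group (vertical axis) by span in bases (horizontal axis, log scale) for unflagged junctions with C equal to 1, unflagged ones with C equal to 0, and flagged ones of the same read rule. The C equal to 0 line lies to the left, with a median of 410 bases, and both unflagged lines run on above 100000 bases, where 0.351% of flagged junctions lie.

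On the mitochondrial genome 4 junctions passed the rule and 0 flagged ones did. They were SJ169054, SJ169055 and SJ169057, whose starts lie between positions 6451 and 6458, and SJ169060 at position 14517. They had 39, 13, 54 and 11 reads and spans of 54 to 67 bases, and all 4 had C equal to 0.

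The contig table, another file on the same build, gave the cover of the bases beside each junction. Both flanking bases lay in a contig of the same strand in 91.1% of these junctions and in 99.6% of flagged ones. The share was 89.9% with C equal to 1, 94.0% with C equal to 0 and 83.7% where both ends were shared. Both flanks lay in the same contig, which then ran through the gap, in 36.6% against 20.1% of flagged junctions. The spans differ between these groups, so the same was taken at spans of at most 500 bases. There it was 72.5% with C equal to 1, 88.3% with C equal to 0 and 52.5% in flagged junctions. Spans still differed below that limit, so the comparison is not free of span. At most 100 bases were spanned by 375 of 2220 with C equal to 1, 741 of 1809 with C equal to 0 and 7624 of 32814 flagged junctions.

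The balance of R1 and R2 was wider than in flagged junctions. The log2 ratio of R1 over R2 had a median of 0.29 and ran from -1.99 at the 5th percentile to 2.46 at the 95th. In flagged junctions the median was 0.44, with -0.91 and 1.85. The ratio was beyond 4-fold in 12.3% of the unflagged and in 4.27% of the flagged junctions. Counting error is larger at the lower read numbers of the unflagged group, and the rule itself required both numbers to be above 0.

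Whether a junction's share of its end differed between R1 and R2 was tested with Fisher's exact test (two-sided, Benjamini-Hochberg adjusted over all 23885 junctions tested). It compares 2 sets of reads, not conditions, and takes each read as independent. The reads carry no molecular identifiers and R1 and R2 have no replicates, so these p-values cover counting error only and are too small where reads are copies of 1 molecule. The share here is over all other junctions at either end, flagged or not. Junctions at the same end are thus set against each other, and 1 shift can be called in both. The tests are not independent, and the background of all junctions tested includes the unflagged ones described here. Of the 7884 unflagged junctions tested, 401 (5.09%) passed an adjusted p of 0.05, against a background of 6.67% in all junctions tested and 7.15% in the flagged ones. The share was higher in R1 in 193 (2.45%, background 3.4%) and higher in R2 in 208 (2.64%, background 3.27%). The unflagged junctions tested had a median of 20 reads and the flagged ones 99, so smaller differences could be called in the latter. Among those called, the median difference was 10.4 percentage points.

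The smallest p-values came at ends with many reads or at large shifts. SJ104140 at chr11:48614075-48615869 shares its donor with SJ104138, which had 83771 reads, and took 0.252% of R1 (138 reads) and 1.21% of R2 (359 reads), with an adjusted p of 1.91e-59 by Fisher's exact test. SJ27472 at chr3:98646964-98661742 took 20.6% of R1 and 12.0% of R2 (adjusted p of 3.19e-28). The largest shift among the 5 smallest p-values was in SJ58958 at chr6:116288234-116326710, which passes over 105 bases and took 18.6% of R1 and 55.2% of R2, with 57 and 305 reads (adjusted p of 2.08e-23). In SJ148523 at chr17:28577999-28636310 the share was higher in R1, 16.5% against 2.56% (adjusted p of 1.31e-27), and in SJ28286 at chr3:107788247-107819801 it was higher in R2, 6.08% against 1.63% (adjusted p of 2.39e-25). The directions were thus mixed, 2 of the 5 being higher in R1 and 3 in R2. The tandem acceptor of SJ97656 was used slightly more in R1, 61.4% against 57.7% (adjusted p of 8.95e-17), and that of SJ160176 more in R2, 65.7% against 60.9% (adjusted p of 0.0222).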

How the data were processed

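The authors deposited, for the whole series, a junction table holding the count of reads across each junction, and a contig table holding a signal level for each contig, both on mm9 per the file names. No source used here names the aligner or the junction caller, or says how reads that fit several places were handled. Gene and transcript tables are on another build and were not used here, so junctions have no gene names, and host gene levels and gene lists were not analysed here. The members and the alternatives were chosen with earlier results of these data known.

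R1 and R2 were read from each junction's name. Ends were matched on chromosome and strand. Junctions tested for unequal use needed at least 10 reads of their own and 10 in the others at their ends. Intervals are exact binomial (95%). Python 3.11.15, pandas 2.3.3, scipy 1.17.1 and networkx 3.6.1 were used, and the test was checked on simulated data.

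Junctions named by rule were the 15 with the most reads, the 5 most-read of each class, the 5 longest, the 5 shortest, the 5 with the highest use at ends with at least 100 reads, and the 5 with the smallest p. Others were named after their values were seen: those of equal span, inserted stretches, loci, skipped stretches, the mitochondrial junctions and SJ2651. Alternatives changed the read limit, the partners, the strand match, the adjustment and the contig match.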

Additional observations from a re-analysis of the deposited data

How the results depend on the processing

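The number of junctions followed the read limit: it was 11236 at 10 reads, 21167 at 5, 5737 at 20 and 2287 at 50. The share with a flagged end, 52.5%, became 49.6% when flagged partners also had to pass the read rule, 51.4% at a limit of 20 reads, 47.8% at 50 reads, 54.4% for spans of 50 to 100000 bases and 54.1% without the densest locus. The last alternative and those on the flag C were chosen after seeing the data. The share with C equal to 0, 29.9%, became 27.7% without that locus, 27.2% for spans of 50 to 100000 bases and 33.3% at 50 reads. A multiple of 3 among the distances of all 4537 alternative ends rose from 39.6% to 49.3% at 50 reads. Bonferroni adjustment left 60 of the 401 calls of unequal use. Both flanks were in a contig in 92.4% with either strand allowed, against 91.1%. The cause of these moves was not tested. Requiring both read numbers to be at least 3 left 10147 junctions, and dropping the condition on them gave 11549. A chi-square test gave 469 calls and at least 50 reads in the others at an end gave 410. The median use, 12.0%, was 11.5% to 12.4% under its alternatives, and the 715 skipped stretches were 700 to 746.

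Read counts carry no molecular identifiers, so intervals cover counting error only, and at the median of 20 reads small differences in use are not detectable. No paired analysis was possible because the series holds 1 group and the read numbers carry no replicate.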
